A study of Mus musculus with 3 samples.

Results

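Imprinted genes of 5 chromosomal regions were followed through 3 mouse cell cultures: the Snrpn region (Snrpn, Snurf, Ube3a and Ndn) and Peg3 on chromosome 7, the neighbours Peg10 and Sgce and, farther along, Mest on chromosome 6, and the neighbours Grb10 and Cobl on chromosome 11. They were taken by name, 10 genes in all, and 9 of them were listed in each of the 3 deposited expression tables, among the 18969 genes that all 3 tables list. Snurf was listed in none of the tables and has no value below.

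In an imprinted gene one parental allele is silenced by a mark set in the germ line, so that transcription comes mainly or wholly from the other allele. Imprinted genes lie in groups, and the members of a group share a control region whose DNA methylation differs between the parental chromosomes. Many of them act on growth of the embryo and placenta, on metabolism and on behaviour, and most are transcribed more in mesoderm, placenta or brain than in pluripotent cells.

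All cells came from male F1 hybrids of a C57BL/6J mother and a CAST/EiJ father. The mESCs were embryonic stem cells kept undifferentiated in 2i and LIF. The CPCCs, cardiac precursor cell cultures, were made from embryoid bodies in hanging drops with ascorbic acid and then passaged with EGF and Fgf2, while the CBs, cardiac bodies, were beating aggregates grown from the stem cells with ascorbic acid and picked by hand, so that the CPCCs were not the source of the CBs. Each culture is 1 sample of single cells captured on a microfluidic chip, with full-length poly(A) cDNA, sequenced as several library pools, and although the study used several clones derived from single cells, no label says which clone a pool holds.

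The tables held 215 mESCs in 3 pools, 175 CPCCs in 2 pools and 232 CBs in 3 pools, with a median of 1528316, 1437414 and 1397869 counts per cell. Levels are given as CPM, counts per 1000000 counts, from the counts summed over the cells of a sample or pool, and add up both alleles, so that imprinting itself was not measured. With 1 sample per culture no difference between cultures can be tested. Intervals of shares are exact Clopper-Pearson and intervals of counts exact Poisson, both at 95%, and both cover counting error only; values per pool show how far parts of 1 sample differed and are not replicates. The labels were checked against marker genes of cell types. All 10 pluripotency markers were detected in most mESCs, 8 of the 10 were still detected in most CPCCs, with a summed level of 5538 CPM in the first pool against 1210 CPM in the second, and 1 was in CBs. None of 10 cardiac progenitor markers and none of 12 cardiomyocyte markers was detected in most cells of the CPCCs or CBs, although CB pool 2 held 1288 CPM of the cardiomyocyte list and 1126 CPM of the endothelial list against at most 314 and 51.8 CPM in the other CB pools. In most CPCCs 3 of 5 smooth muscle and 6 of 7 epithelial markers were detected. In most CBs 7 of 10 fibroblast markers were detected, with 15021, 1042 and 15302 CPM in pools 1 to 3. Less RNA per cell and fewer cells of a type cannot be told apart in these sums.

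Windows of promoter sequence are shown because they set out how the Snrpn region is organised; they were read from RefSeq on GRCm38.p6 and end at the base before the annotated start. Snrpn and Snurf share one start, the third window below. Snrpn also has starts farther upstream, of which one is shown first, and Ndn lies on the opposite strand, where the RefSeq start falls inside the longer GENCODE gene. Capitals mark GCATGCG and its reverse complement CGCATGC, which overlap in these windows; the motif was chosen after the sequences had been read.
Snrpn, upstream start, chr7:60140226-60140475, minus strand: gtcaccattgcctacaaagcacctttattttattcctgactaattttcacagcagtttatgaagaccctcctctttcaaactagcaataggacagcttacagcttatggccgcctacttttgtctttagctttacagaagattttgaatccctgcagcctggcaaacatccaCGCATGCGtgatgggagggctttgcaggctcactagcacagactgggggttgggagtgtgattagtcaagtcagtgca
Ndn, chr7:62348027-62348276, plus strand: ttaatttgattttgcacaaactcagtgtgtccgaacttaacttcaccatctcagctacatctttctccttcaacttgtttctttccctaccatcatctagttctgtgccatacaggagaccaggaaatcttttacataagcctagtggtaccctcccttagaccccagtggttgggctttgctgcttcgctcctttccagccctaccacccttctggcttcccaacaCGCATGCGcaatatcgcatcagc
Snrpn and Snurf, chr7:60005200-60005449, minus strand: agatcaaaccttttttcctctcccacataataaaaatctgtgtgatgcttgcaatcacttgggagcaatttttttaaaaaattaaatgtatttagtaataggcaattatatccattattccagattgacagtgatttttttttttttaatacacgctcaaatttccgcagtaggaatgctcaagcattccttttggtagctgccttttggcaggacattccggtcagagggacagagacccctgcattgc
The motif was in the windows of the 3 upstream Snrpn starts, which share long stretches and do not count separately, and in the Ndn window, but in none of the windows of Ube3a, Mest, Grb10, Cobl or Peg3. Peg10 and Sgce were not searched. Of 32817 promoter windows of 250 bases in the table, 988 held it on either strand, 3.01%. A match is a run of letters and says nothing of a bound factor.

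The Snrpn region lies at chr7:59228750-62350262 on GRCm38, from Ube3a to Ndn. Snrpn encodes SmN, a core protein of spliceosomal particles. Its level was 229, 203 and 193 CPM in the mESC pools, 724 and 339 CPM in the CPCC pools, and 85.6, 216 and 54.0 CPM in the CB pools. Both CPCC pools lay above every other pool, and the second CB pool lay within the range of the mESC pools while the other CB pools lay below it. Over whole samples Snrpn had 208 CPM in mESCs, 525 CPM in CPCCs and 123 CPM in CBs. It was detected, with 1 count or more, in 92.6% of mESCs (88.2 to 95.7%) and 92.6% of CPCCs (87.6 to 96.0%), but in 59.1% of CBs (52.4 to 65.4%). The CB pools differed in this too, with 47.8, 85.9 and 43.5% of cells, so that the second CB pool was near the 85.4% of mESC pool 3 and the others were lower.

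Snurf is an upstream reading frame on the Snrpn transcript. In GENCODE M21 its transcript has 216 bases, all of which lie in exons of Snrpn, so that reads of both cannot be told apart there. Gm38393, on the same strand, holds all 216 of these bases and 589 exonic bases of Snrpn (27.3%). It had 2.77, 7.78 and 3.71 CPM in mESCs, CPCCs and CBs. Snrpn also has a close copy elsewhere in the genome. Gm5802, a processed copy of Snrpn at chr14:62540493-62541193, was listed in all 3 tables, and of the 723 coding bases of Snrpn 692 aligned with it, with 667 identical (96.4%). The longest run of identical bases was 91, and the stretch below, from coding base 335 to 424 of Snrpn, shows how close the sequences are, with the 5 mismatches in capitals.
Snrpn: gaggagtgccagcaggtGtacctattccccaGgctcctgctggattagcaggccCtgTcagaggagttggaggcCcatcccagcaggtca
Gm5802: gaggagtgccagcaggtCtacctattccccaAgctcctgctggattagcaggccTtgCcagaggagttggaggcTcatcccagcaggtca
Gm5802 had 4.07 CPM in mESCs, 8.79 CPM in CPCCs and 2.53 CPM in CBs, which is 1.96%, 1.67% and 2.06% of the level of Snrpn. In single pools that share ran from 1.25 to 2.85%. Of the 109 CBs with a count of Gm5802 all 109 had Snrpn, as had 150 of the 151 CPCCs and all 180 of the mESCs. Across cells with 100000 counts or more, log2(CPM + 1) of both genes had a correlation of 0.71 in 203 mESCs, 0.87 in 169 CPCCs and 0.85 in 219 CBs, and of all genes detected in at least 25% of cells Gm5802 was the one most like Snrpn in CPCCs and in CBs. In mESCs Gm10052 came first with 0.84, and Gm5802 lay below the 99th percentile of 0.74 over 12093 genes. Cells of a pool share their library preparation and differ in depth. How many Gm5802 counts are reads of Snrpn was not tested, and the tables may treat reads that match both differently, since the CPCC table holds whole counts and the others estimated counts. Adding them to those of Snrpn left the log2 ratios of Snrpn between cultures at 1.33, -0.75 and -2.08.

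**Figure D1:**
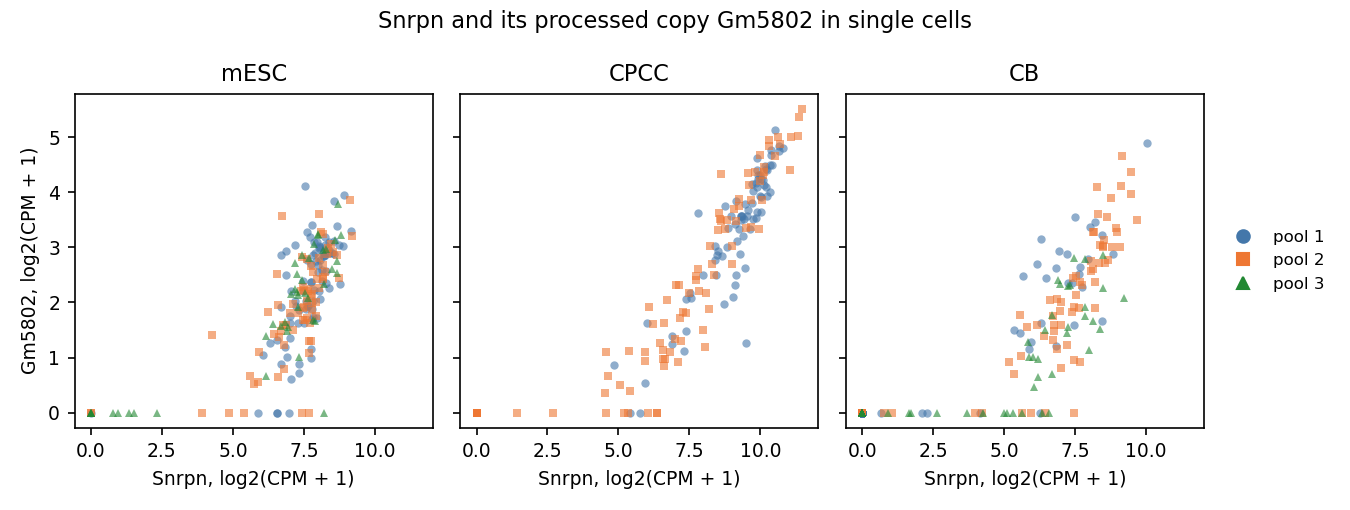
Level of Snrpn (x axis) and of its processed copy Gm5802 (y axis) in single cells with 100000 counts or more, both as log2(CPM + 1), in mESCs, CPCCs and CBs; marks stand for pools. Gm5802 lies far below Snrpn and is higher in cells with more Snrpn, with a correlation of 0.71, 0.87 and 0.85 in the 3 cultures.

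Snrpb, the Snrpd genes, Snrpe, Snrpf and Snrpg, 7 genes in all, encode the proteins that assemble with SmN or stand in its place. Over whole samples none of them differed by 2-fold in any pair of cultures, but pools did: Snrpd1 had 216, 417 and 127 CPM in the CB pools against 376 to 493 CPM in the mESC pools, and Snrpg had 114 and 51.1 CPM in the CPCC pools against 96.7 to 141 CPM. Their median log2 ratio was -0.45 for CPCCs over mESCs, where Snrpn had 1.33, and -0.07 for CBs over CPCCs, where Snrpn had -2.09. For CBs over mESCs it was -0.50, beside -0.76 for Snrpn, so that in this pair Snrpn lay near its partners. Snrpb, the gene of the near-identical protein that most cells use, had 649, 631 and 538 CPM in mESCs, CPCCs and CBs.

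Ube3a encodes the ubiquitin ligase E6-AP and is imprinted in neurons, with both alleles used in most other cells. It was the steadiest of the genes, with 89.7, 99.1 and 109 CPM in the mESC pools, 126 and 119 CPM in the CPCC pools and 184, 186 and 192 CPM in the CB pools. The pools of the 3 cultures did not overlap, in the order mESC, CPCC, CB, but no pair of cultures differed by 2-fold. On the opposite strand runs Snhg14, the long transcript that begins at Snrpn and whose distal part is antisense to Ube3a. It had 38.7, 65.1 and 54.4 CPM, or 39.1, 53.3 and 28.8% of the level of Ube3a, with 23.0, 49.3 and 13.03% in the CB pools, and 1803 exonic bases of Ube3a (8.74%) lie in its exons too. No source used here says whether the counting used strand, so reads from the shared bases cannot be told apart.

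Ndn encodes necdin, a MAGE family protein that restrains growth and is high in postmitotic neurons. Its level was 18.5, 16.0 and 12.1 CPM in the mESC pools, 53.5 and 138 CPM in the CPCC pools, and 386, 245 and 296 CPM in the CB pools. The pools of the 3 cultures were apart, with CBs the highest. It was detected in 34.9% of mESCs (28.5 to 41.7%), 64.6% of CPCCs (57.0 to 71.6%) and 79.3% of CBs (73.5 to 84.3%). Over whole samples Ndn was highest in CBs and Snrpn in CPCCs.

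Peg10 and Sgce start 99 bases apart on opposite strands at chr6:4674350-4760517. Peg10 derives from a retrotransposon and is needed for the placenta, and Sgce encodes epsilon-sarcoglycan, a membrane protein that links the cell to its matrix. Peg10 had 1.45, 2.21 and 1.37 CPM in the mESC pools, 118 and 32.7 CPM in the CPCC pools, and 44.8, 180 and 3.80 CPM in the CB pools. Sgce had 1.45, 3.37 and 7.85 CPM in the mESC pools, 69.3 and 155 CPM in the CPCC pools and 303, 192 and 214 CPM in the CB pools. Both were near the bottom of the range in mESCs and higher in each other pool, yet the pools of CPCCs and of CBs ranked differently for the 2 genes. CB pool 3 had the lowest Peg10 outside the mESCs and the middle Sgce value among the CB pools, and CPCC pool 1 had more Peg10 and less Sgce than pool 2.

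Mest encodes a hydrolase-like protein of the mesoderm and had the most counts of the 9 genes in CBs. Its level was 151, 54.9 and 54.5 CPM in the mESC pools, 334 and 625 CPM in the CPCC pools, and 2084, 3869 and 1011 CPM in the CB pools. The pools of the 3 cultures did not overlap. It was detected in 82.3%, 87.4% and 90.5% of cells, shares that were high in every culture and leave little room to differ. In CPCCs 1 cell gave 14.9% of all Mest counts; in CBs no cell gave more than 3.23%. Copg2, on the opposite strand and overlapping Mest over 912 exonic bases (23.1% of those of Mest), had 17.6, 13.4 and 14.3 CPM, which is 20.7, 2.77 and 0.617% of the level of Mest.

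Peg3 encodes a zinc finger protein that is also known for effects on maternal care and cell death. It had 78.7, 93.0 and 88.5 CPM in the mESC pools, 473 and 456 CPM in the CPCC pools and 1720, 1457 and 709 CPM in the CB pools. The pools of the 3 cultures were apart and, in mESCs and CPCCs, close to one another. Usp29, which shares its control region with Peg3, had 5.72, 12.0 and 51.0 CPM in the 3 cultures, with 47.6, 85.0 and 21.1 CPM in the CB pools.

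Grb10 and Cobl, at chr11:11930508-12464960, were the genes with the opposite direction. Grb10 encodes an adapter that binds the insulin and IGF1 receptors and restrains growth, and Cobl encodes an actin nucleator. Grb10 had 12.7, 12.0 and 10.4 CPM in the mESC pools, 6.47 and 1.52 CPM in the CPCC pools and 3.77, 1.59 and 0.681 CPM in the CB pools. Cobl had 91.7, 51.7 and 63.9 CPM in the mESC pools, 23.0 and 2.94 CPM in the CPCC pools and 18.1, 9.20 and 22.8 CPM in the CB pools. Every mESC pool was above every pool of the other cultures for both genes, while the pools of CPCCs and CBs overlapped. Grb10 was found in 104 of 215 mESCs, 42 of 175 CPCCs and 8 of 232 CBs (3.45%, 1.50 to 6.68%), and 32.4% of its counts in CBs came from 1 cell. Cobl was found in 88.8%, 38.9% and 20.3% of cells.

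**Figure D2:**
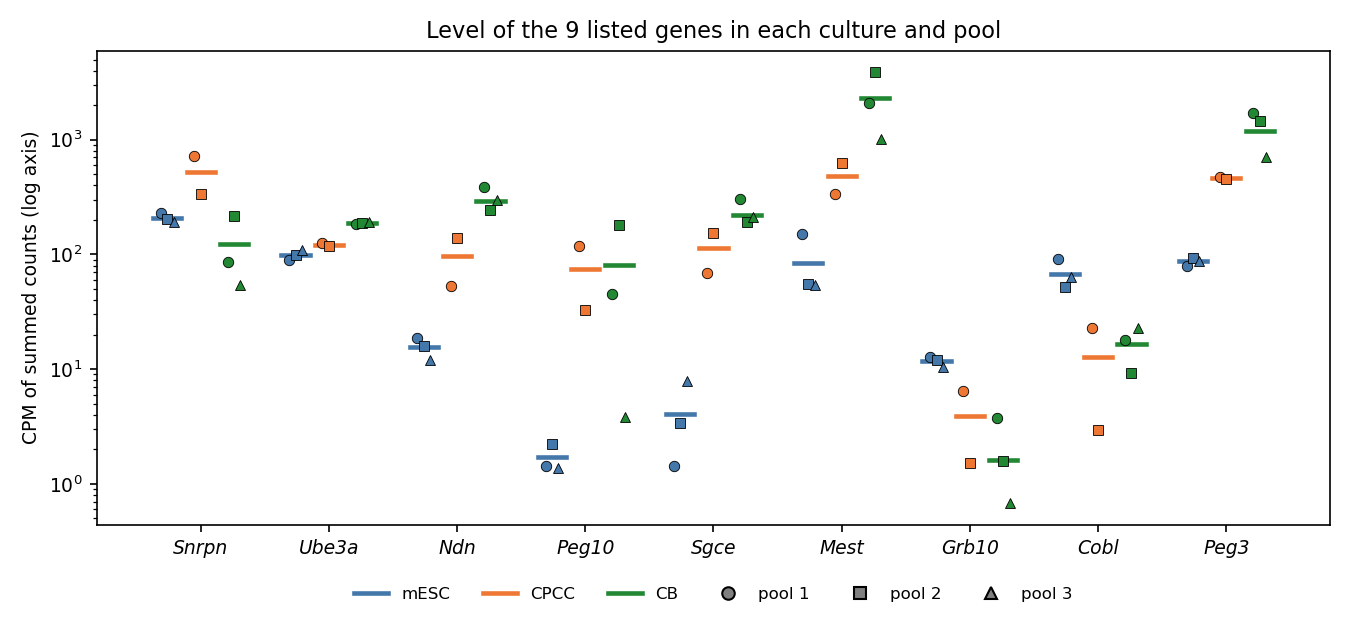
CPM of the summed counts (log axis) of the 9 listed genes in mESCs, CPCCs and CBs; horizontal bars are whole samples, marks are library pools. Ndn, Sgce, Mest and Peg3 step up from mESCs through CPCCs to CBs, Grb10 and Cobl are highest in mESCs, and the CB pools of Peg10 run from 3.80 to 180 CPM.

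Levels of different genes can be set side by side only per length. Divided by the exonic bases of each gene in GENCODE M21, mESCs had 96.5 CPM per kb of Snrpn, 21.5 of Mest, 8.34 of Cobl, 6.54 of Peg3 and less than that of the others, down to 0.259 of Peg10. In CBs the order was Mest (589 CPM per kb), Peg3 (89.1), Ndn (79.3), Snrpn (57.0) and Sgce (20.9), with Grb10 last (0.177). Snrpn was also first in CPCCs, with 243 CPM per kb, ahead of Mest with 123 CPM per kb. The 9 genes together made up 581 CPM of the mESC counts, 1897 CPM of the CPCC counts and 4436 CPM of the CB counts. The lengths join all annotated exons, and the isoforms in use were not measured.

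The question of the first comparison is what distinguishes the precursor cultures from the stem cells they were made from. A gene was called higher or lower when the log2 ratio of (CPM + 1) was at least 1 or at most -1. Of the 9 genes 6 were higher in CPCCs than in mESCs, against 13.4% of all 20272 genes listed in both tables, and 2 were lower, against 6.38%. Of the 9988 genes at or above 10 CPM in the higher sample, 1637 were higher and 763 lower. Peg10 stood out with 74.1 against 1.73 CPM (log2 ratio 4.78), followed by Sgce with 114 against 4.08 CPM (4.49), Ndn (2.56), Mest (2.50), Peg3 (2.40) and Snrpn (1.33). Cobl (-2.33) and Grb10 (-1.38) were lower, and Ube3a (0.30) was within 2-fold. The pools of both cultures did not overlap for any of the 9 genes, which held for 38.3% of all genes. The median ratio of the 9 genes was 2.40 and that of all genes -0.02. Without CPCC pool 1, which holds most of the pluripotency marker counts, Snrpn was at 0.70, and without pool 2 Grb10 was at -0.77, so that each call was lost.

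The second comparison sets the beating aggregates against the stem cells. Of the 9 genes 5 were higher in CBs, against 24.9% of 19855 genes, and 2 were lower, against 11.3%. Of the 10962 genes at or above 10 CPM in the higher sample, 3296 were higher and 1703 lower. Sgce had 222 against 4.08 CPM (log2 ratio 5.45), Peg10 80.1 against 1.73 CPM (4.90), Mest 2324 against 85.0 CPM (4.76), Ndn 293 against 15.6 CPM (4.14) and Peg3 1188 against 87.1 CPM (3.75). Grb10 (-2.29) and Cobl (-1.97) were lower, and Ube3a (0.92) and Snrpn (-0.76) were within 2-fold. Without CB pool 2, which had more Snrpn than the other CB pools, Snrpn was at -1.70 and so was a further gene lower in CBs. Pools did not overlap for 8 of the 9 genes, Snrpn being the exception, as for 42.8% of all genes. For Peg10 the lowest ratio over pairs of pools was 0.58, between CB pool 3 and mESC pool 2, and the highest 6.25.

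The third comparison sets CBs against CPCCs, which were made by different routes. Here 3 genes were higher in CBs, against 17.0% of 20995 genes, and 1 was lower, against 7.54%. Of the 11156 genes at or above 10 CPM in the higher sample, 2095 were higher and 1077 lower. Mest (log2 ratio 2.26), Ndn (1.58) and Peg3 (1.35) were higher and Snrpn (-2.09) was lower. Sgce had 0.96, Ube3a 0.62, Cobl 0.37, Peg10 0.11 and Grb10 -0.92. Pools did not overlap for 6 of the 9 genes, against 28.0% of all genes, and overlapped for Peg10, Grb10 and Cobl. Peg10 was at -0.07 when scaled by TMM, at -0.08 when scaled by DESeq2, at -2.13 without CB pool 2 and at 1.27 without CPCC pool 1, so that no order of these cultures can be given for it. The sign of 2 more genes also changed: Cobl was at -0.06 without CB pool 3 and at -0.45 without CPCC pool 2, but at 2.16 without CPCC pool 1, and Grb10 was at 0.05 without CPCC pool 1. Sgce passed the limit without CPCC pool 2 (1.66), without CB pool 2 (1.08) and when all cells were weighted equally (1.13). Both scalings moved all ratios of CBs by 0.17 to 0.23 downwards.

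**Figure D3:**
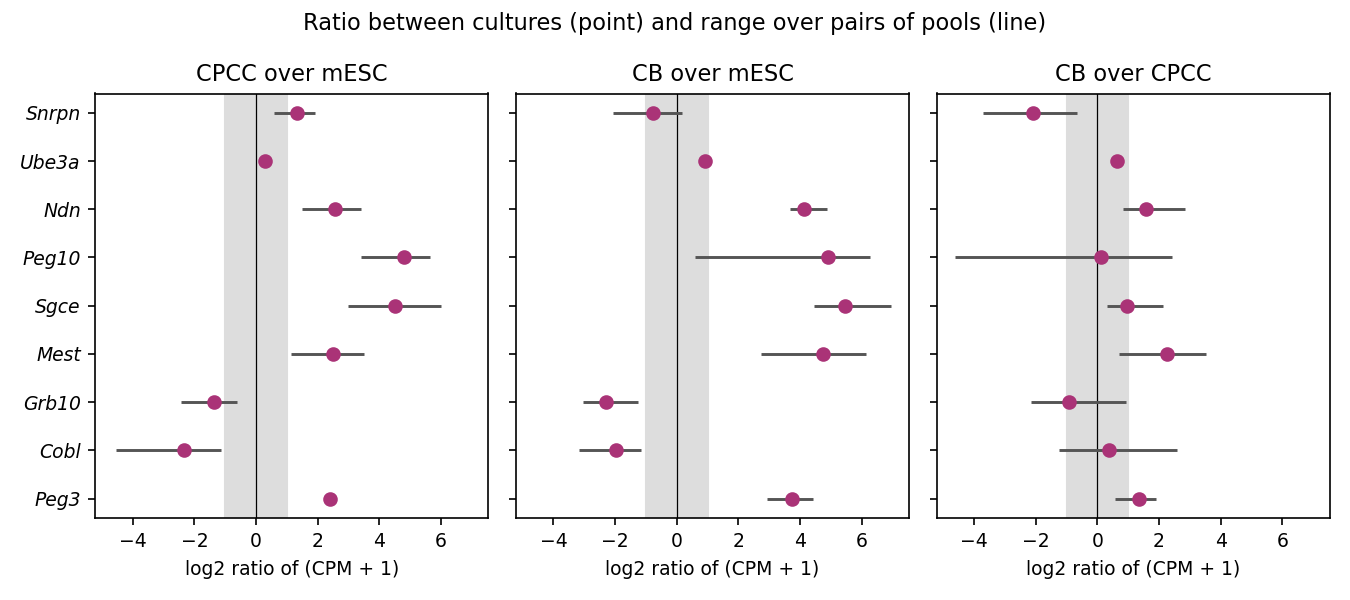
log2 ratio of (CPM + 1) between each pair of cultures for the 9 genes; points are whole samples, lines run from the lowest to the highest ratio over pairs of pools, and the grey band marks less than 2-fold. For CPCCs over mESCs 6 points lie right of the band and 2 left of it, and the Peg10 line for CBs over CPCCs runs from -4.63 to 2.42.

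Other imprinted genes of the same regions, 21 by name, were taken as a second list. Of the 14 that both samples list, 5 were higher in CPCCs than in mESCs and none was lower; for CBs over mESCs it was 9 of 13 and none, and for CBs over CPCCs 7 of 15, with Tfpi2 lower. The shares of all genes were those given above for each pair, 13.4% higher and 6.38% lower, 24.9% and 11.3%, and 17.0% and 7.54%. Around Peg10, Casd1 (5.12, 27.0 and 59.7 CPM in mESCs, CPCCs and CBs), Pon2 (1.75, 29.5 and 51.2 CPM) and Pon3 (3.44, 21.9 and 46.4 CPM) stood in the same order as Sgce over whole samples. For Pon3 the CPCC level came from pool 2, with 42.1 CPM, while pool 1 had 0.360 CPM and so lay below all 3 mESC pools. CPCC pools 1 and 2 also differed for Casd1 (7.96 and 44.8 CPM) and Pon2 (7.76 and 49.8 CPM), both above the mESC pools. The pools of CBs and CPCCs overlapped for all 3 of these genes. In the Snrpn region Magel2, a relative of Ndn, had 0.0740, 1.34 and 7.22 CPM, from 1, 9 and 17 cells. Ddc, beside Grb10, had 70.6, 35.7 and 36.5 CPM, a log2 ratio of -0.97 and -0.93 against mESCs. Its CPCC pools had 65.1 and 8.12 CPM, the first within the 61.2 to 87.5 CPM of the mESC pools. Of 25 imprinted genes elsewhere in the genome 13 were higher and 2 lower in CPCCs than in mESCs, 19 higher and 2 lower in CBs than in mESCs, and 13 higher and 1 lower in CBs than in CPCCs, beside the same shares of all genes. Past the limit in all 3 pairs were 9 of them: H19, Igf2, Meg3, Mirg, Airn, Peg13, Nnat, Cdkn1c and Plagl1. Nnat, the gene of neuronatin, had 0.0456, 61.7 and 284 CPM, and Cdkn1c, an inhibitor of the cell cycle, had 0.296, 3.67 and 34.4 CPM, both in the order of Ndn and Mest; Cdkn1c had 39.0, 6.39 and 58.2 CPM in the CB pools. Plagl1, the gene of a zinc finger factor, had 139, 65.0 and 1220 CPM and was the one that was lower in CPCCs than in mESCs. Some of these calls rested on 1 pool or a few cells. Igf2 had 3.51 CPM in CPCC pool 1 and 0.0772 CPM in pool 2, and 42.3, 3.09 and 282 CPM in the CB pools, where 1 cell gave 58.1% of its counts and the pools overlapped with those of CPCCs. Peg13 had 1.32 and 7.18 CPM in the CPCC pools, and for both genes these overlapped with those of mESCs. Plagl1 had 21.9 CPM in CPCC pool 1 and 105 CPM in pool 2, near the lowest mESC pool with 119 CPM, and 1 cell gave 36.5% of its CPCC counts. These lists share the libraries and pools of the 9 genes.

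Cells were clustered within each culture without the 9 genes, so that the levels per cluster are a description of cells grouped by other genes. The mESCs gave 3 clusters of 85, 69 and 61 cells that largely follow pools, with 83 of the 85 cells of cluster 0 from pool 1. Mest had 149 CPM in cluster 0 and 57.1 and 59.1 CPM in the others, Cobl had 91.9, 60.5 and 54.0 CPM, and Sgce had 1.71, 4.34 and 6.10 CPM. Snrpn, with 229, 202 and 197 CPM, and Grb10, with 12.7, 11.3 and 11.5 CPM, differed little in their sums, but Snrpn was found in 78.3% of the cells of cluster 1, which held all 8 mESCs under 10000 counts, against 100% and 98.4% in the others.

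In CPCCs the levels of most of the 9 genes differed between clusters. Cluster 0, pluripotent-like with 9 of 10 markers and led by Nr0b1 and Tdh, held 66 cells, 57 of them from pool 1. It had 889 CPM of Snrpn, 31.7 CPM of Cobl and 8.44 CPM of Grb10, but 10.4 CPM of Sgce and 25.3 CPM of Ndn. Cluster 1 (55 cells, led by Fbln5, Mgp and Col1a2) had the reverse: 189 CPM of Snrpn, 1.19 of Cobl, 0.773 of Grb10, 222 of Sgce and 184 of Ndn. Cluster 2 (30 cells, led by Fgf8, Ackr4 and Fgf5) had as much Snrpn as cluster 0, 943 CPM, and the most Mest, 1273 CPM, though its median cell had 398 CPM of Mest and the 1 cell that gave 14.9% of all Mest counts of the CPCCs was in it. It held 7 of the 10 pluripotency markers, with 4.06 CPM of Cobl and 89.1 CPM of Sgce. Cluster 0 was nearer to the mESC sample than clusters 1 and 2 were in Cobl and Sgce, but had 889 CPM of Snrpn and 60.3 CPM of Peg10 where the mESC sample had 208 and 1.73 CPM. Peg10 in cluster 1 was 278 CPM in the cells of pool 1 and 18.99 CPM in those of pool 2. Cluster 3 (14 cells of pool 2, led by C1qa and Cx3cr1) had 0.222 CPM of Peg10 beside 142 CPM of Sgce, and Grb10 and Cobl in 0 of 14 cells. A limit of 3 cells, used here wherever none was found, allows a share of up to 21.4%, and the exact interval reaches 23.2%. Cluster 4 (10 cells) had a median of 54.4% mitochondrial counts and low levels of all 9 genes, between 0 and 23.0 CPM.

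In CBs the endothelial-like cluster 4 (20 cells, all from pool 2, with all 10 endothelial markers) had the most Mest, 7526 CPM, and Cobl in 0 of 20 cells, which by the same limit of 3 cells allows a share of up to 15.0%. The exact interval of that share reaches 16.8%. Cluster 2 (43 cells, led by Cyp2f2, Krt4 and Krt15) had the least Mest, 153 CPM, the least Ndn, 35.0 CPM, and the least Peg3, 266 CPM, with 864 CPM of Peg3 in its cells of pool 1 and 127 CPM in those of pool 3. It had the most Cobl, 65.4 CPM in 62.8% of its cells, while no other cluster had more than 10.5 CPM. The fibroblast-like clusters 1 and 3 had 395 and 465 CPM of Ndn and 300 and 319 CPM of Sgce, the highest values of both genes in CBs. This order did not hold within pool 1. There cluster 0 had 501 CPM of Ndn, against 240 and 492 CPM in clusters 1 and 3. For Sgce it had 349 CPM, against 199 and 386 CPM. Cluster 0 (72 cells, led by Car14, Sall4 and Prtg, 55 of them from pool 2) had the most Snrpn, 227 CPM, and the most Peg10, 165 CPM. Peg10 was low in cluster 1 (18.4 CPM) and cluster 2 (2.19 CPM), where pool 3 gave 41 of 60 and 32 of 43 cells. Within cluster 1 cells of pool 1 had 12.4 CPM of Peg10 and cells of pool 3 had 1.96 CPM, and the 3 cells of pool 2 raised the sum; the median cell had none.

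**Figure D4:**
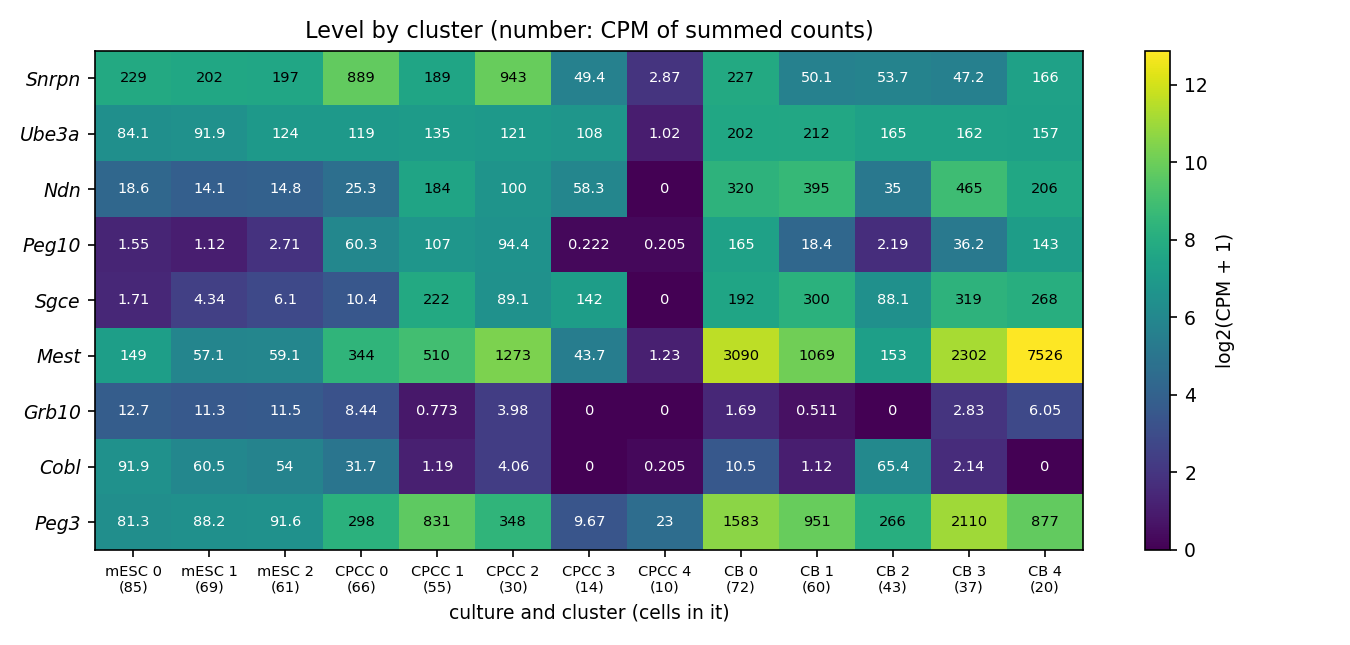
CPM of the summed counts (numbers) and log2(CPM + 1) (colour) of the 9 genes in each cluster, with the number of cells in brackets; clusters were made within a culture and without these genes. Snrpn is highest in CPCC clusters 0 and 2, Cobl in CB cells is highest in cluster 2, and Mest reaches 7526 CPM in CB cluster 4.

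Neighbours were asked whether they were found in the same cells. Neighbours here are genes of the same region, and most do not lie side by side. Peg10 and Sgce start 0.099 kb apart and Grb10 and Cobl 426 kb apart. The starts of Snrpn and Ube3a, Snrpn and Ndn, and Ube3a and Ndn are 911, 2206 and 3118 kb apart, and these pairs share genes. Over the 5 listed pairs of neighbours the median share of cells with both genes, of those with either, was 37.7% in mESCs, 67.5% in CPCCs and 58.9% in CBs, beside 34.4, 58.3 and 50.7% over the pairs of genes from different regions. The phi coefficient, a correlation of detection calls that is 0 for independent genes, had a median of 0.20, 0.29 and 0.22 over neighbours and of 0.13, 0.21 and 0.19 over the 31 pairs of genes from different regions. After each cell had been thinned to one depth, leaving out 22, 19 and 22 cells, the medians were 0.04, 0.21 and 0.12 for neighbours and 0.05, 0.14 and 0.08 for the other pairs. The ranges of both kinds of pair overlapped in every culture. Cells share a pool and differ in depth, and depth alone lets genes be found together.

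Peg10 and Sgce, close as their starts are, were often found apart. In mESCs 15 cells had both, 17 Peg10 only, 40 Sgce only and 143 neither (phi 0.20, and 0.03, 0.18 and 0.40 in pools 1 to 3). In CPCCs 94 had both, 35 Peg10 only and 32 Sgce only (phi 0.03), and the cells with Peg10 only came largely from pool 1, with 30 of 35, and those with Sgce only from pool 2, with 29 of 32. In CBs 103 had both, 6 Peg10 only and 106 Sgce only (phi 0.14). Of the latter 70 were in pool 3, where 8 cells had both, whereas in pool 2 68 cells had both and 5 Sgce only. Within a pool phi was 0.09 and 0.23 in CPCCs and 0.14, 0.28 and 0.10 in CBs, above 0 in each, and over all thinned cells it was 0.04 in mESCs, -0.08 in CPCCs and 0.08 in CBs.

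**Figure D5:**
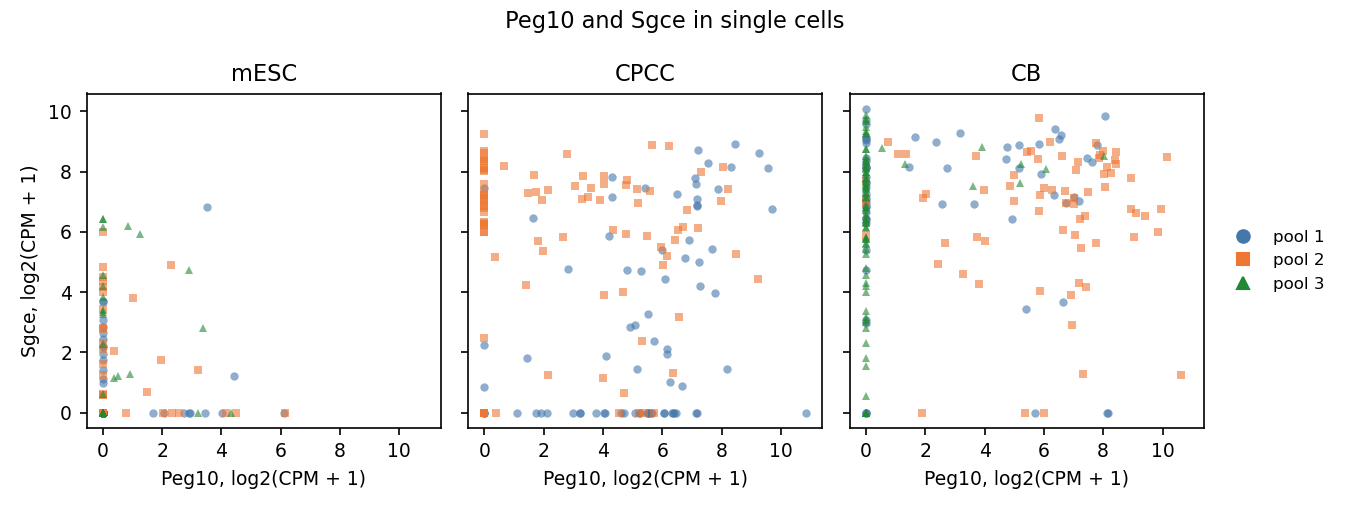
Level of Peg10 (x axis) and Sgce (y axis) in single cells with 100000 counts or more, both as log2(CPM + 1), by culture; marks stand for pools. Cells with Sgce and without Peg10 lie on the left edge, mostly from pool 2 in CPCCs and from pool 3 in CBs, and cells with Peg10 only on the lower edge, mostly from pool 1 in CPCCs.

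In the Snrpn region every mESC with Ndn also had Snrpn: 75 cells had both, 124 Snrpn only and none Ndn only. Since 92.6% of mESCs had Snrpn, few cells could have had Ndn only. In CPCCs 111 had both, 51 Snrpn only and 2 Ndn only. In CBs, where 59.1% of cells had Snrpn and 79.3% had Ndn, 119 cells had both, 18 Snrpn only and 65 Ndn only. Snrpn and Ube3a were found together in 196 of the 207 mESCs with either, 157 of 170 CPCCs and 132 of 208 CBs, and 71 CBs had Ube3a only. Grb10 and Cobl shared 97 mESCs, with 94 cells with Cobl only and 7 with Grb10 only, 28 CPCCs and 1 CB.

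The pair with the lowest phi among all pairs was Sgce and Cobl in CPCCs, from different chromosomes: 35 cells had both, 91 Sgce only, 33 Cobl only and 16 neither (phi -0.36), and over 169 cells their levels had a correlation of -0.63 (-0.58 and -0.49 within pools 1 and 2). Over all cells Mest and Peg3 had the highest phi, 0.59 in CBs. There 197 cells had both, 13 Mest only, 6 Peg3 only and 16 neither. After thinning their phi was 0.49, while a pair from different regions reached 0.61 in CPCCs. Both named pairs were picked after their values were seen.

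The genes whose levels across cells were most like each member were found by the correlation of log2(CPM + 1) over cells with 100000 counts or more, among genes detected in at least 25% of them. In CBs the gene most like Mest was Peg3 (0.54 over 219 cells, with 0.40, -0.12 and 0.58 in pools 1 to 3), and next to Mest itself Peg3 was most like Usp29 (0.50). The gene most like Ndn was Vim, the mesenchymal intermediate filament gene, in CBs (0.58, and 0.45, 0.40 and 0.74 within pools), while in CPCCs Prss23, Cavin1 and Acta2 came first (0.60, 0.60 and 0.59 over 169 cells). For Sgce in CPCCs they were Reep5, Vamp8 and Gnas (0.73, 0.72 and 0.71), and for Cobl Tcl1, Gm13929 and Ooep (0.72, 0.71 and 0.70), of which Tcl1 and Ooep are genes of pluripotent cells and oocytes. Peg10 in CBs came closest to Igf2bp1, with 0.58 over all cells but 0.14, -0.03 and 0.46 within pools. In mESCs the first genes reached 0.39 for Ube3a, 0.32 for Ndn, 0.31 for Sgce and 0.28 for Grb10. They were higher for Snrpn (Gm10052, 0.84), Mest (Hmga1b, 0.58) and Cobl (Stoml2, 0.47). Within mESC pools 1 to 3 these were 0.72, 0.64 and 0.92 for Snrpn and 0.58, 0.46 and 0.57 for Mest. For Cobl they were 0.06, 0.40 and 0.69, so that pool 1 hardly showed it.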

How the data were processed

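Single cells of 3 cultures were sequenced with SMART-Seq v4 and Nextera XT. Per the labels the authors aligned reads to GRCm38 with STAR 2.7. The authors deposited estimated counts per gene and cell for mESCs and CBs, of which 28.9% and 30.8% above 0 are not whole, and whole read counts for CPCCs; the counting model and use of strand are not given in the sources used here. Differences in counting between tables and differences between cultures cannot be told apart in comparisons with CPCCs. Of the CPCC rows, 208 with no gene, 23 with symbols turned into dates (0.139% of counts) and 2 columns of no sample were left out. The deposited counts were summed over cells and divided by the library total (Python 3.11.15, pandas 2.3.3, scipy 1.17.1), with a pseudocount of 1 CPM for ratios. Depth per cell ran from 4 to 8105511 counts, and no cell filter was used. Estimated counts were rounded for thinning. Clusters came from Seurat 5.3.0 (10 components, resolution 0.6). Scaling factors of edgeR 4.0.16 and DESeq2 1.42.0 were alternatives. Coordinates and exons came from GENCODE M21, promoters from RefSeq GRCm38.p6; of the symbols 97.6 to 97.7% matched GENCODE. Folds, intervals, co-detection and thinning were tested on simulated data. Genes named are the 10 members, the lists of imprinted genes and splicing partners and the 3 genes most like a member. Gm5802, Gm38393 and the pairs said to be chosen later are named too. Members and lists were chosen with earlier results of these data known.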

Additional observations from a re-analysis of the deposited data

How the results depend on the processing

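No paired analysis was possible because each culture is 1 sample and its cells bear no shared numbers. Counts of genes were recomputed under other scalings, pseudocounts, cell filters and cell weights and without single pools. The 6 genes higher in CPCCs than in mESCs became 5 without CPCC pool 1, with Snrpn lost. The 2 genes lower in CPCCs than in mESCs became 1 with a pseudocount of 10 CPM, which brings low genes closer, or without CPCC pool 2, and the 2 lower in CBs than in mESCs became 1 with a pseudocount of 10 CPM; Grb10 was the gene that no longer passed. Without CB pool 2 the latter became 3, with Snrpn (-1.70) added. The 3 genes higher in CBs than in CPCCs became 5 without CPCC pool 1, with Peg10 and Cobl added, and 4 without CB pool 2, without CPCC pool 2 or with the same weight for every cell, each with Sgce added. The 1 gene lower in CBs than in CPCCs became 2 with TMM factors, DESeq2 size factors, the same weight for every cell, a pseudocount of 0.1 CPM, without the cell with the highest count of each gene, and without CB pool 1, CB pool 2 or CPCC pool 2; the added gene was Grb10, or Peg10 without CB pool 2. Median co-detection of neighbours in CBs was 44.2% without CB pool 2 and 69.3% without pool 3. The median share of cells with a gene, over genes and cultures, went from 79.3 to 68.5% when 5 counts were asked for, a stricter call. The causes were not tested otherwise. No called log2 ratio changed sign; of 414 recomputed ratios 18 moved across the 2-fold limit. Clusters at resolutions of 0.4 and 0.8, or made with the 9 genes, gave 14, 18 and 15 cases of a gene at least 2-fold above the rest of its culture, against 15. In these settings the CBs gave 4, 6 and 5 clusters. Their adjusted Rand index against the clusters described, which is 1 for the same grouping, was 0.66, 0.87 and 0.81. For CPCCs it was 0.90, 0.85 and 1, and for mESCs 1, 1 and 0.96. With 1 sample per culture, differences between cultures, pools and clones cannot be separated. Low levels, such as those of Grb10 in CBs, rest on few cells.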
